A study of Homo sapiens with 6 samples.

Results

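The 90 histone genes among the 58825 genes of the deposited tables are described here. They were taken by gene name, as the names that start with HIST1H to HIST4H, H1F, H2AF or H3F or with a later form of these symbols, which matched 124 names. Of these, 33 were annotated pseudogenes and 1 was the antisense gene H1FX-AS1, and both kinds were left out. The 71 names with a HIST number were taken as the replication-dependent genes of the histone clusters (cluster genes), and the other 19 as the histone variant genes. The classes follow the name alone, so the 71 also hold the testis-specific HIST1H2BA and HIST4H4, the only gene of its locus. Likewise the 19 hold H2BFS, whose current symbol H2BC12L follows that of the cluster gene HIST1H2BK (H2BC12). The cluster genes comprise 6 genes of the linker histone H1, 17 of H2A, 18 of H2B, 15 of H3 and 15 of H4. The variant genes comprise 4 of H1, 9 of H2A, 3 of H2B and 3 of H3.

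The cells were NCI-H460, a human lung cancer line that the sample labels describe as adenocarcinoma. One group of 3 libraries (NC-shRNA) came from cells with a control hairpin and is labelled GFPkd. It was compared with another 3 libraries (PRMT5-shRNA, a hairpin directed against the arginine methyltransferase PRMT5). Both hairpins were delivered by lentivirus and kept under puromycin selection, so both groups are stably infected populations of 1 line, and which of the designed PRMT5 hairpins was sequenced is not stated. Libraries were made with a stranded kit that selects polyadenylated mRNA, and the text below gives a level either as CPM (estimated counts over the TMM-scaled library total) within a gene, or as FPKM, which divides by transcript length, between genes.

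Cluster histone genes supply the bulk of new histones during DNA replication, and their mRNAs are unusual in ending in a short stem-loop in place of a poly(A) tail. The stem-loop is bound by SLBP, and the pre-mRNA is cut with the help of the U7 snRNP, a particle of the Sm and Lsm protein family. Variant histone genes lie outside the clusters, mostly carry introns, and give ordinary polyadenylated mRNAs through the whole cell cycle. In a poly(A)-selected library a cluster gene is therefore counted through whichever of its RNAs carry a tail or are carried along. PRMT5 itself places symmetric dimethylarginine on histone H4 and other histones as well as on Sm proteins.

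Histone stem-loops are shown for 8 genes, since they mark where a replication-dependent transcript normally ends. The last of the 8, H2AFX, is classed here as a variant, and the others are cluster genes. Capitals mark the 6-base stem arms, the 4 bases between them are the loop, and 5 flanking bases stand on each side. They were read 5′ to 3′ from GENCODE release 29 transcripts of GRCh38.
HIST3H2A: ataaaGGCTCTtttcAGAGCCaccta
HIST2H2BE: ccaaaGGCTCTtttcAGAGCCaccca
HIST1H2BD: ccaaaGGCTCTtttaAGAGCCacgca
HIST1H3E: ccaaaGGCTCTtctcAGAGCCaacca
HIST2H3C: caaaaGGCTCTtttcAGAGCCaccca
HIST1H4H: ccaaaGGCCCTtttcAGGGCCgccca
HIST2H4A: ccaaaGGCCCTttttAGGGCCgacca
H2AFX: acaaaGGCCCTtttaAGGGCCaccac
In this order the sites lie at chr1:228457364-228457389 (minus strand), chr1:149886183-149886208 (minus), chr6:26158582-26158607 (plus), chr6:26225591-26225616 (plus), chr1:149840687-149840712 (minus), chr6:26285126-26285151 (minus), chr1:149833027-149833052 (plus) and chr11:119094893-119094918 (minus). All lie after the stop codon, in the 3′ UTR.

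The histone stem-loop pattern of 16 bases was found within 200 bases after the stop codon in 32 of the 71 cluster genes. It lay 22 to 67 bases past the stop codon, with a median of 35.5. The form shown for HIST2H2BE was the most frequent, in 17 genes of the H2A, H2B and H3 families, and all 8 H4 genes with a match had a stem of the kind shown for HIST1H4H or HIST2H4A. Among variants H2AFX, the H2A variant that is phosphorylated at DNA breaks, was the 1 gene of 19 with a match. For the other 39 cluster genes the annotated transcripts hold no match. In 35 of these 39 no annotated transcript goes past the stop codon, so the absence of a match says nothing about the RNA in the cell.

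In the annotation, 25 cluster genes had a transcript that ran more than 50 bases past the stem-loop and 23 had AATAAA or ATTAAA in the last 40 bases of a transcript, against 16 of the 19 variants. A transcript of more than 1 exon was annotated for 13 cluster genes and 11 variants. The longest transcript of each cluster gene had a median length of 509 bases, and that of each variant 1614 bases. The cluster genes lie on 3 chromosomes, with 55 HIST1 genes at chr6:25726132-27893843, 12 HIST2 and 3 HIST3 genes on chromosome 1 and HIST4H4 on chromosome 12. In RefSeq promoters of GRCh38.p14, from 250 bases before to 50 after the start, the CCAAT motif (either strand) was found in 83.6% of 61 cluster promoters and 81.2% of 16 variant promoters, against 35.7% of all 27305. The TATAAA motif was found in 65.6% of the cluster promoters, 25.0% of the variant promoters and 11.95% of all. These are matches of letters and not shown to be bound sites.

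PRMT5, the targeted gene, was at 143, 127 and 128 CPM in the NC-shRNA libraries and at 45.8, 45.6 and 38.3 CPM in the PRMT5-shRNA libraries. The groups did not overlap, and the log2 fold change was -1.62 (SE 0.094, adjusted p = 0.0063 from the quasi-likelihood test of edgeR, adjusted after Benjamini and Hochberg over all genes tested, as are all adjusted p-values below unless another tool is named). The total estimated count per library ran from 53531257 to 70518401, and low counts gathered at multiples of 4, so that a count is not 1 sequenced fragment. The epithelial keratins KRT8 and KRT18 were at 716 to 926 and 441 to 615 CPM. Of the 5 epithelial markers listed, only 3 had a mean over 1 FPKM, and the lowest mean was 0.167 FPKM. The 5 epithelial markers listed summed to 1644, 1577 and 1467 CPM in NC-shRNA and to 1351, 1353 and 1333 CPM in PRMT5-shRNA, without overlap (log2 ratio -0.22), with 4 of the 5 below 0 and CDH1 at 0.45, and their part in the histone values was not tested. The summed level of the lung lineage markers NKX2-1, NAPSA and SFTPB was at most 0.531 CPM in any library. The leukocyte marker PTPRC was at most 0.147 CPM, and the fibroblast markers COL1A1, COL1A2 and DCN summed to 96.8 to 124 CPM in NC-shRNA and 86.0 to 104 CPM in PRMT5-shRNA, with COL1A2 at 0 throughout. The summed level of 3 endothelial markers (PECAM1, VWF and CDH5) was 9.74 to 10.8 CPM in NC-shRNA and 14.4 to 18.0 CPM in PRMT5-shRNA. VWF was at 0 in every NC-shRNA library, and 1 of the 3 had a mean over 1 FPKM. All 3 were higher without overlap at an unadjusted p under 0.05 in edgeR, beside 6.54% of all tested genes. For 1 of them the adjusted p was 0.0341. The part of this difference in the histone values was not tested.

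Per length, the variants stood above the cluster genes in these poly(A)-selected libraries. The median FPKM over all 6 libraries was 4.70 for the 19 variants and 0.498 for the 71 cluster genes, and 11 variants and 28 cluster genes were over 1 FPKM. The highest mean was 103 FPKM for H2AFZ, which encodes H2A.Z, the variant found at promoters and enhancers. Next came HIST1H2BK at 65.6 FPKM, H3F3A at 59.9 FPKM, H1FX at 42.5 FPKM, H1F0 at 40.02 FPKM, H3F3B at 33.5 FPKM and HIST1H1C at 27.9 FPKM. HIST1H2BK and HIST1H1C were thus the cluster genes that reached the range of the abundant variants, and the next cluster gene, HIST3H2A, was at 12.9 FPKM.

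**Figure D1:**
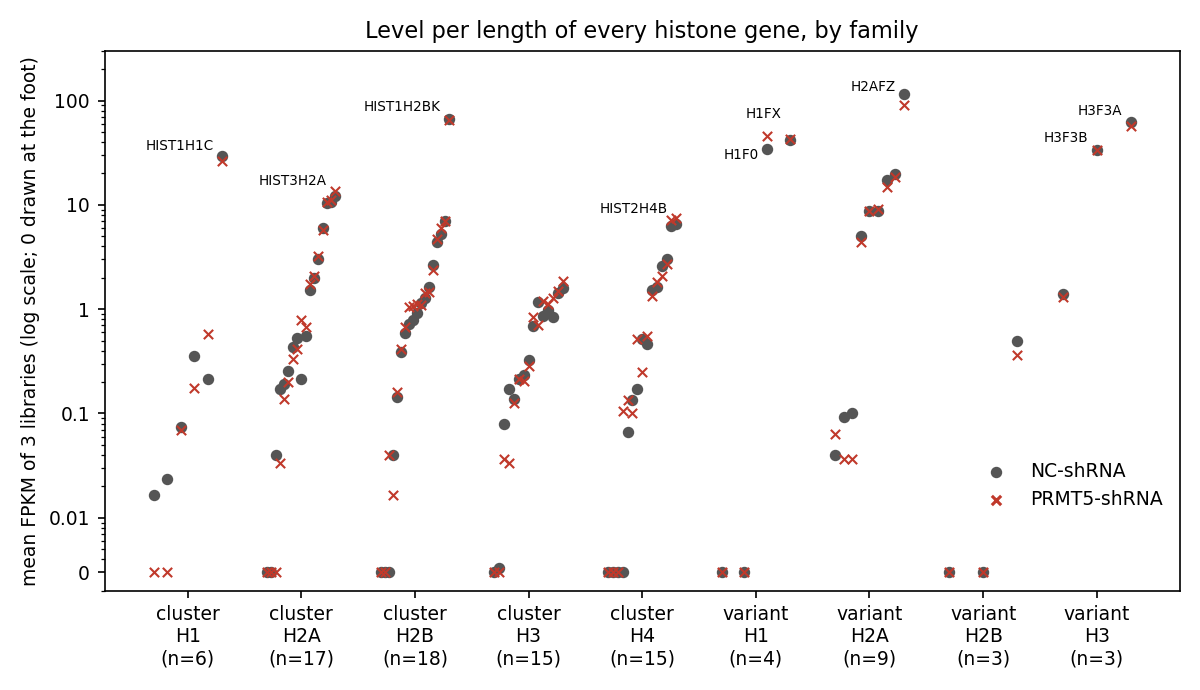
Mean FPKM of each histone gene over 3 libraries (log axis, genes at 0 drawn at the foot), by class and family, with NC-shRNA as circles and PRMT5-shRNA as crosses. In H2A and H3 the highest points are variants (H2AFZ at 103 FPKM and H3F3A at 59.9 FPKM over all libraries), in H2B and H4 they are cluster genes, and in H1 both variants H1FX and H1F0 stand above HIST1H1C.

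The classes took different shares in each histone family of these poly(A)-selected libraries. Cluster RNAs are counted only where they carry a tail or are carried along, so these are not shares of all histone mRNA. In NC-shRNA the variants made up 91.8% ± 1.05 (SD, n = 3) of the summed H3 FPKM, 78.4% ± 1.20 of H2A, 71.7% ± 1.10 of H1 and 0.504% ± 0.582 of H2B. H4 has no variant among the genes matched, and its level came from cluster genes alone. HIST1H2BK by itself gave 70.5% ± 1.65 of the H2B level, and HIST2H4A with HIST2H4B gave 55.8% ± 1.61 of the H4 level.

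Among cluster genes, those annotated past the stem-loop were at a median of 1.45 FPKM and the other 46 at 0.223 FPKM. Genes with AATAAA or ATTAAA near a transcript end were at a median of 1.73 FPKM and those without at 0.216 FPKM. These are matches of letters and not shown to be used as poly(A) signals. HIST1H4J, for example, has a match although its transcript ends 6 bases after the stem-loop. Genes with a multi-exon transcript were at 1.55 FPKM and single-exon genes at 0.390 FPKM. The 2 highest cluster genes go against this order, as both are single-exon genes with no stem-loop in the annotated transcript. For HIST1H2BK the annotation that matches the tables holds 1 transcript of 381 bases, while the RefSeq gene of GRCh38.p14 (H2BC12) spans 8566 bases, and FPKM divides by the annotated length.

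Of the 90 genes, 78 had a count in some library and 58 passed the filter on low counts, 46 cluster genes and 12 variants. The 12 genes at 0 in all 6 libraries were 8 cluster genes, the testis-specific HIST1H2BA and its neighbour HIST1H2AA among them, and the 4 germline variants H1FOO, H1FNT, H2BFM and H2BFWT, where a 0 allows up to 3 fragments per library for counting error alone, which is 12 counts if 1 fragment gives 4. The 20 other genes under the filter were at most 0.127 CPM on average. They included the canonical linker histone HIST1H1E, which had 10, 4 and 0 counts in NC-shRNA and 8, 0 and 3 in PRMT5-shRNA, and the testis variants H2AFB1, H2AFB2 and H2AFB3.

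Between the groups, no histone gene passed an adjusted p of 0.05 in the edgeR test, where 0.0493% of the 20295 tested genes were called higher and 0.0197% lower in PRMT5-shRNA. At an unadjusted p under 0.05, 4 of the 58 were higher (H1F0, HIST2H2BF, HIST1H2AJ and HIST2H3C) and 3 were lower (H2AFZ, H3F3A and H2AFV), beside 6.54% and 6.29% of all tested genes. DESeq2 called H1F0 (adjusted p = 0.031) and H2AFZ (adjusted p = 0.0426) on the same counts, where it called 303 genes higher and 227 lower in all. At an unadjusted p under 0.05 and a fold over 1.5, HIST1H2AJ was the 1 member past the limits, and none was lower, beside 2.53% and 1.29% of all tested genes. The replicates are described as biological, and the p-values measure the spread between these cultures. In bulk RNA fewer cells that express a gene (such as cells in S phase) and less RNA per cell cannot be told apart.

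The difference between the classes was not tested. The median log2 fold change was 0.05 over the 46 cluster genes, with 28 above 0 and 18 below, and -0.17 over the 12 variants, with 2 above 0 and 10 below, beside 0.01 over all tested genes. The cluster median was -0.01 without NC-shRNA replicate 3 and the variant median was -0.09 without NC-shRNA replicate 1. Groups did not overlap for 5 cluster genes, all higher in PRMT5-shRNA, and for 5 variants, of which 4 were lower and 1 higher. Over all tested genes 11.0% did not overlap and were higher and 10.7% were lower. Of the 14061 tested genes with a mean count of at least 100, 13.0% did not overlap and were lower, beside 4 of the 11 variants at that count.

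**Figure D2:**
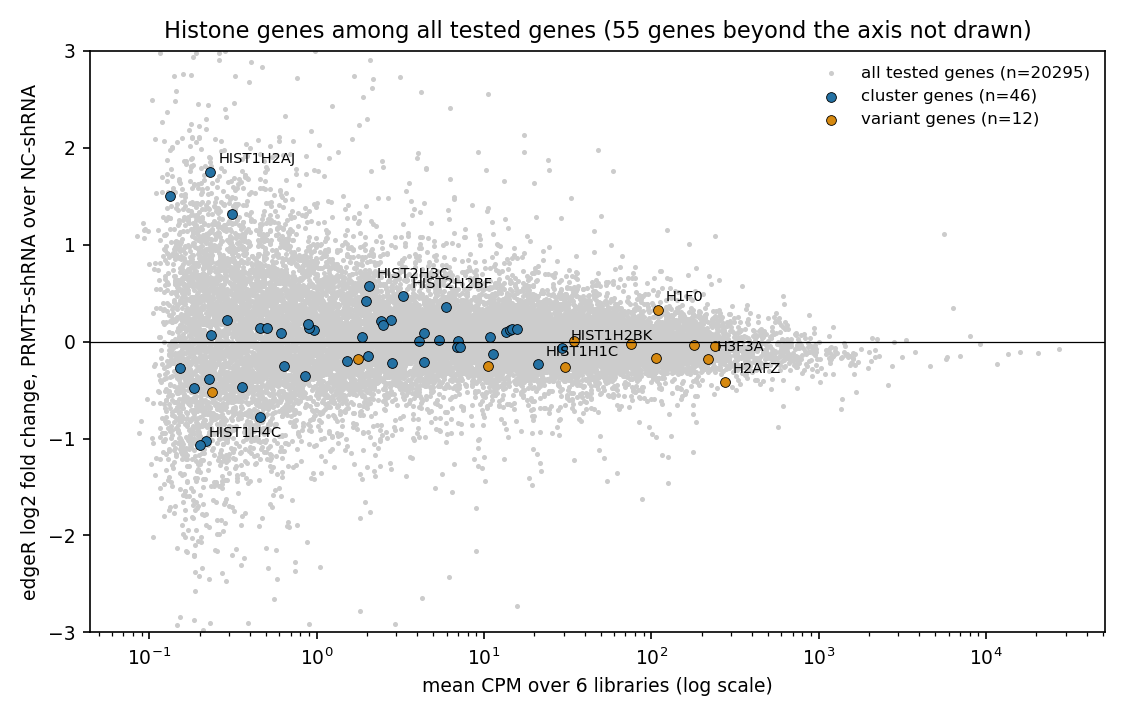
Log2 fold change of PRMT5-shRNA over NC-shRNA (edgeR) against mean CPM (log axis) for all 20295 tested genes in grey, 46 cluster genes in blue and 12 variants in orange. Of the 12 variants 10 lie below 0, with H1F0 at 0.33 the exception farthest from 0, while the abundant cluster genes lie within the cloud on both sides of 0.

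Summed over the class, the 71 cluster genes were at 217, 213 and 194 CPM in NC-shRNA and at 203, 207 and 221 CPM in PRMT5-shRNA. The groups overlapped, with a log2 ratio of the means of 0.02. The 19 variants summed to 1363, 1335 and 1325 CPM in NC-shRNA and to 1287, 1261 and 1135 CPM in PRMT5-shRNA. The highest PRMT5-shRNA sum was below the lowest NC-shRNA sum, and the log2 ratio was -0.13. This separation rested on H2AFZ, the variant with the highest level. Without it, a choice made after the values were seen, the variants summed to 1003, 1037 and 1040 CPM in NC-shRNA and to 1025, 1032 and 918 CPM in PRMT5-shRNA. These overlapped, with a log2 ratio of -0.05. With H2AFZ kept, the log2 ratio was -0.07 without PRMT5-shRNA replicate 3, the library with the lowest sum.

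The variant families did not go one way. The H1 variants summed to 173 ± 0.750 CPM in NC-shRNA and 196 ± 11.2 CPM in PRMT5-shRNA (SD, n = 3), higher and without overlap. The H2A variants, H2AFZ among them, summed to 690 ± 50.4 and 588 ± 36.5 CPM, lower and without overlap, and the H3 variants to 478 ± 34.5 and 443 ± 55.4 CPM, with overlap. On the FPKM scale all variants summed to 350 ± 9.19 and 328 ± 14.9 without overlap, and to 234 ± 3.09 and 237 ± 6.79 with overlap when H2AFZ was left out. The cluster genes summed to 203 ± 9.75 and 206 ± 9.75 FPKM. No test was made on sums.

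**Figure D3:**
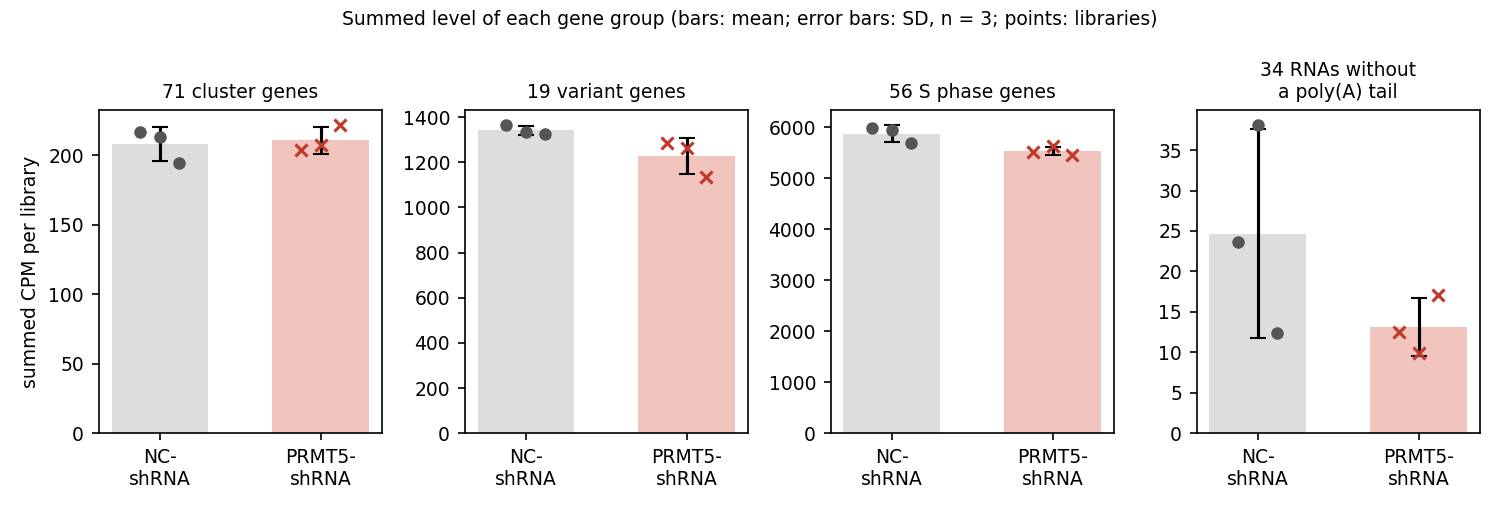
Summed CPM per library of the 71 cluster genes, 19 variants, 56 genes of S phase and 34 RNAs without a poly(A) tail, with bars for the mean, error bars for the SD (n = 3) and points for the libraries. The cluster sums overlap (194 to 217 and 203 to 221 CPM), the variant and S phase sums are lower in each PRMT5-shRNA library (the variant sums overlap without H2AFZ), and the RNAs without a tail spread from 12.4 to 38.1 CPM within NC-shRNA.

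Linker histone H1 closes the entry and exit of DNA at the nucleosome. H1F0, the H1.0 variant that accumulates in quiescent and differentiated cells, was at 95.2, 98.6 and 96.8 CPM in NC-shRNA and at 119, 113 and 134 CPM in PRMT5-shRNA. Each PRMT5-shRNA library was above each NC-shRNA library, PRMT5-shRNA replicate 3 being the highest, and the log2 fold change was 0.33 (SE 0.075, adjusted p = 0.203). Across the alternatives tried, its fold change stayed above 0 with adjusted p from 0.031 to 0.426.

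H1FX, the gene of the H1.10 variant, was at 78.2, 73.4 and 76.3 CPM in NC-shRNA and at 76.0, 73.2 and 74.9 CPM in PRMT5-shRNA. These overlapped, with a log2 fold change of -0.03 (SE 0.058), which was 0.03 on the FPKM scale. HIST1H1C, the cluster gene for H1.2, was at 24.0, 22.6 and 21.4 CPM in NC-shRNA and at 16.7, 19.6 and 21.5 CPM in PRMT5-shRNA. Its groups overlapped through PRMT5-shRNA replicate 3, and the log2 fold change was -0.23 (SE 0.12, adjusted p = 0.45).

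Within the H1 family, H1F0 made up 31.1%, 33.3% and 32.8% of the summed FPKM in NC-shRNA and 39.6%, 37.9% and 40.4% in PRMT5-shRNA. HIST1H1C made up 28.6%, 27.8% and 26.5% in NC-shRNA and 20.3%, 24.0% and 23.7% in PRMT5-shRNA. Groups were separate for either share. The share of H1FX overlapped, at 39.3% ± 0.834 and 37.4% ± 2.15 (SD, n = 3). The remaining H1 cluster genes were nearly absent from these libraries, with HIST1H1B (H1.5) at 0.292 and 0.144 CPM on average and HIST1H1D (H1.3) at 0.177 and 0.449 CPM. Cluster mRNAs normally end without a poly(A) tail, so these values do not show that the RNAs are absent from the cells.

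**Figure D4:**
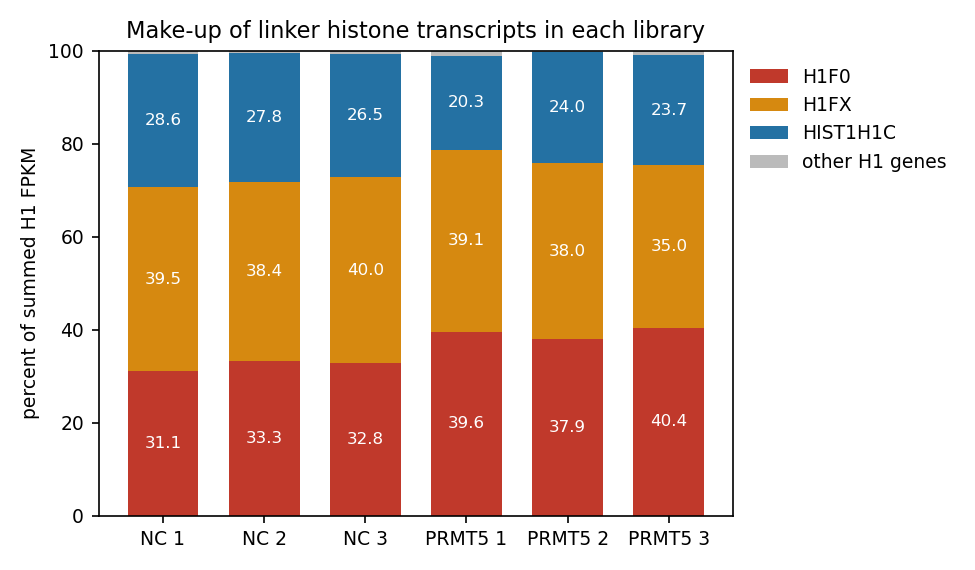
Percent of the summed H1 FPKM given by H1F0, H1FX, HIST1H1C and all other H1 genes, as a stacked bar for each library. H1F0 is the largest part in the 3 PRMT5-shRNA libraries but for replicate 2, where H1FX is at 38.0%, and H1FX is the largest in the 3 NC-shRNA libraries.

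Among H2A variants, H2AFZ was at 360, 297 and 285 CPM in NC-shRNA and at 262, 229 and 217 CPM in PRMT5-shRNA. All PRMT5-shRNA libraries lay below all NC-shRNA libraries, and NC-shRNA replicate 1 was the highest. The log2 fold change was -0.41 (SE 0.11, adjusted p = 0.245), and over the alternatives it ran from -0.50 to -0.31. H2AFZ gave 51.6% ± 2.14 of the summed H2A FPKM in NC-shRNA and 45.9% ± 2.15 in PRMT5-shRNA, again with no overlap.

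H2AFV, which encodes the second form of H2A.Z, was at 115, 114 and 111 CPM in NC-shRNA and at 103, 105 and 94.0 CPM in PRMT5-shRNA. The groups were apart by a smaller step than for H2AFZ, with a log2 fold change of -0.17 (SE 0.063, adjusted p = 0.341). H2AFX was at 38.3, 29.6 and 31.8 CPM in NC-shRNA and at 27.7, 29.7 and 25.6 CPM in PRMT5-shRNA. Its groups overlapped narrowly, through NC-shRNA replicate 2 and PRMT5-shRNA replicate 2, with a log2 fold change of -0.26 (SE 0.12, adjusted p = 0.409).

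The macroH2A genes code for H2A fused to a large domain found on silent chromatin. H2AFY2 (macroH2A2) was at 12.1, 12.02 and 10.6 CPM in NC-shRNA and at 10.004, 10.5 and 8.61 CPM in PRMT5-shRNA. The groups did not overlap, but NC-shRNA replicate 3 and PRMT5-shRNA replicate 2 differed by little, and the log2 fold change was -0.25 (SE 0.13, adjusted p = 0.446). H2AFY (macroH2A1) was higher in level, at 183 ± 17.5 CPM in NC-shRNA and 179 ± 10.6 CPM in PRMT5-shRNA (SD, n = 3), and H2AFJ, an H2A variant of mammals, was at 34.7 ± 2.42 and 34.9 ± 1.25 CPM. Both overlapped, with log2 fold changes of -0.03 and 0.01 that change sign under other settings.

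H3F3A and H3F3B encode the same protein, H3.3, which is placed outside replication at active genes and telomeres. H3F3A was at 242, 236 and 218 CPM in NC-shRNA and at 209, 211 and 196 CPM in PRMT5-shRNA. The 2 groups stayed apart, with a log2 fold change of -0.18 (SE 0.062, adjusted p = 0.319). H3F3B was at 197, 272 and 262 CPM in NC-shRNA and at 265, 262 and 181 CPM in PRMT5-shRNA. Here each group held 1 low library, NC-shRNA replicate 1 and PRMT5-shRNA replicate 3, and the log2 fold change was -0.05 (SE 0.18), with a sign that changes when 1 library is left out.

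Processed pseudogenes of H3F3A also drew counts. H3F3AP4 was at 12.8, 3.72 and 4.28 CPM in NC-shRNA and at 3.28, 4.62 and 4.16 CPM in PRMT5-shRNA, and H3F3AP6 was at 5.31 ± 0.912 and 5.03 ± 0.357 CPM (SD, n = 3). Groups overlapped in both, and NC-shRNA replicate 1 stood apart in H3F3AP4. H3F3A shares 11.7% of its 50-base windows with other genes, and these windows occur in H3F3AP4, so reads could have been divided between the 2.

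H3F3C (H3.5) was at 1.78 CPM on average, with groups that overlapped, and 21.8% of its 50-base windows occur in other genes. H2BFS, the only H2B gene with counts in the variant class, was at 0.67, 0.0577 and 0.113 CPM in NC-shRNA and at 0.055, 0.2 and 0.33 CPM in PRMT5-shRNA. It rests on few counts and shares sequence with HIST1H2BK, so its log2 fold change of -0.52 (SE 1.05) is uncertain and is above 0 without NC-shRNA replicate 1.

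**Figure D5:**
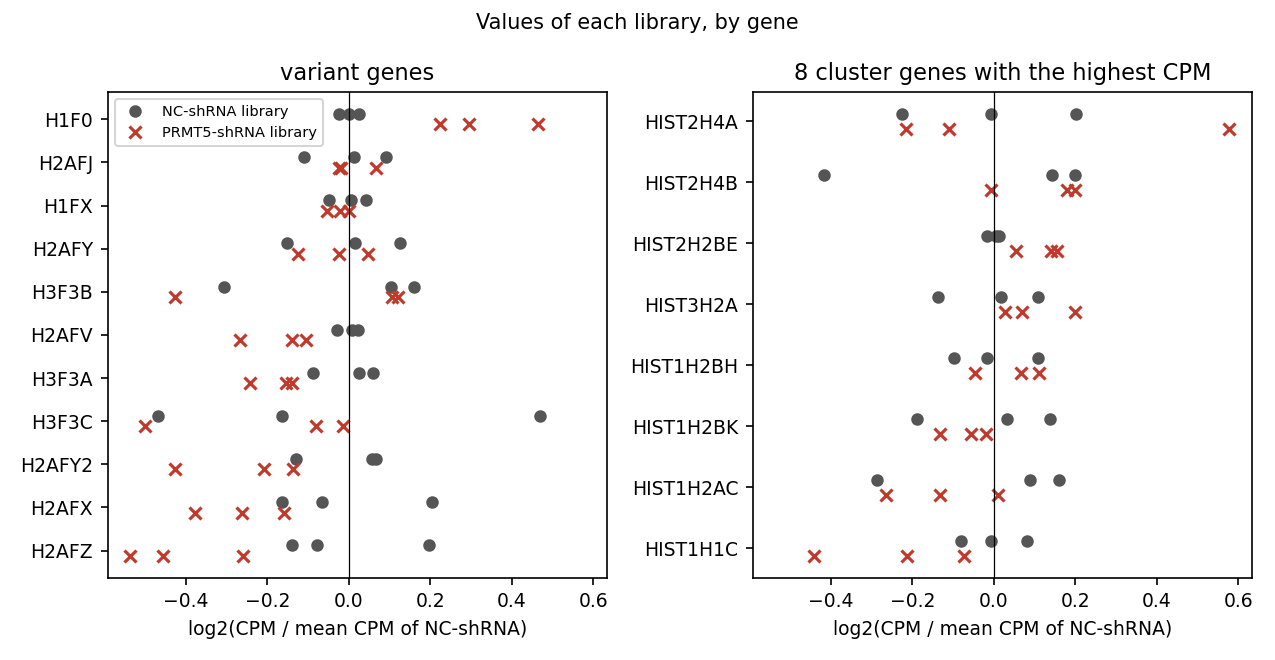
Log2 of each library's CPM over the NC-shRNA mean for 11 variants (left, H2BFS left out) and the 8 cluster genes with the highest CPM (right), NC-shRNA as circles and PRMT5-shRNA as crosses. For H1F0 the crosses lie to the right of all circles, for H2AFZ, H3F3A, H2AFV and H2AFY2 to the left, and of the 8 cluster genes the groups separate for HIST2H2BE alone.

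The 8 cluster genes with the highest mean FPKM gave 73.2% ± 1.80 of the summed cluster FPKM in NC-shRNA and 72.3% ± 1.66 in PRMT5-shRNA. They are not all the same genes as the 8 with the highest CPM. HIST1H2BK was at 33.0, 30.6 and 26.3 CPM in NC-shRNA and at 28.8, 27.3 and 29.6 CPM in PRMT5-shRNA. These overlapped, with a log2 fold change of -0.07 (SE 0.10), and 74.1% of its 50-base windows occur in other genes, so reads may have been divided among them. HIST2H2BE was at 13.9, 13.7 and 13.9 CPM in NC-shRNA and at 15.4, 15.2 and 14.3 CPM in PRMT5-shRNA. The groups did not overlap, with a small log2 fold change of 0.12 (SE 0.091, adjusted p = 0.637).

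HIST3H2A, HIST1H2AC and HIST1H2BH had log2 fold changes of 0.10 (SE 0.11), -0.12 (SE 0.15) and 0.04 (SE 0.11), each with overlapping groups. HIST2H4A and HIST2H4B, whose windows are shared at 97.5% and 97.2%, summed to 31.3, 32.8 and 23.3 CPM in NC-shRNA and to 30.4, 29.2 and 36.0 CPM in PRMT5-shRNA. The sum overlapped, with NC-shRNA replicate 3 low and PRMT5-shRNA replicate 3 high. The likewise near-identical HIST2H2AA3 and HIST2H2AA4 summed to 14.1 ± 1.84 and 13.9 ± 0.904 CPM (SD, n = 3), which differed by less than the spread between libraries.

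Cluster genes of middle level, at about 1 to 10 CPM, were read by family. Among H2A genes, HIST1H2AG was at 5.30, 5.63 and 5.17 CPM in NC-shRNA and at 4.73, 6.49 and 5.02 CPM in PRMT5-shRNA. HIST1H2AE was at 1.83 ± 0.265 and 1.89 ± 0.432 CPM (SD, n = 3). Both overlapped, with log2 fold changes of 0.01 (SE 0.16) and 0.04 (SE 0.24). Among H2B genes, HIST1H2BD, whose stem-loop is shown above, was at 8.48, 6.82 and 6.65 CPM in NC-shRNA and at 6.25, 7.11 and 7.82 CPM in PRMT5-shRNA. HIST1H2BN was at 5.79, 5.47 and 4.33 CPM in NC-shRNA and at 3.44, 7.76 and 8.81 CPM in PRMT5-shRNA. In HIST1H2BN the PRMT5-shRNA libraries spread around the whole NC-shRNA group, replicate 1 below it and the other two above, and its span of 28039 bases also covers HIST1H2AL and HIST1H2AK.

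The H3 genes HIST1H3G, HIST1H3H and HIST1H3E, which all encode the replication-coupled H3.1, had log2 fold changes of 0.01 (SE 0.23), 0.17 (SE 0.22) and 0.21 (SE 0.27). HIST1H3E was at 1.94, 3.09 and 1.74 CPM in NC-shRNA and at 2.20, 2.54 and 3.09 CPM in PRMT5-shRNA. In all of these H3 genes the groups overlapped. Among H4 genes, the protein on which PRMT5 places symmetric dimethylarginine, HIST1H4H was at 4.22, 4.63 and 3.94 CPM in NC-shRNA and at 4.398, 4.35 and 4.87 CPM in PRMT5-shRNA. HIST1H4I was at 5.57, 4.52 and 4.06 CPM in NC-shRNA and at 3.81, 4.604 and 3.77 CPM in PRMT5-shRNA. Their log2 fold changes of 0.09 (SE 0.14) and -0.21 (SE 0.18) lay on either side of 0, and all 15 cluster H4 genes summed to 41.4 ± 6.61 and 43.5 ± 3.47 CPM (SD, n = 3), a difference within the spread.

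HIST2H2BF, an H2B gene of the chromosome 1 cluster with a multi-exon transcript, was at 2.89, 2.31 and 3.11 CPM in NC-shRNA and at 3.55, 3.97 and 3.96 CPM in PRMT5-shRNA. No values overlapped, with a log2 fold change of 0.47 (SE 0.17, adjusted p = 0.33). Its span overlaps the gene FCGR1A on the other strand and AC243772.2 on the same strand, and how the counting treated strand is not stated.

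HIST2H3A and HIST2H3C encode H3.2, and every 50-base window of one occurs in the other, so they were also read as a sum. It was at 2.62, 3.68 and 3.70 CPM in NC-shRNA and at 4.75, 4.19 and 5.20 CPM in PRMT5-shRNA. All PRMT5-shRNA libraries were above all NC-shRNA libraries. Taken alone, the log2 fold changes were 0.57 (SE 0.22, adjusted p = 0.343) for HIST2H3C and 0.42 (SE 0.22, adjusted p = 0.464) for HIST2H3A. Each of them overlaps HIST2H4A or HIST2H4B on the other strand.

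HIST1H2AJ had the highest fold change of all histone genes tested, on few counts, with 4, 13 and 4 counts in NC-shRNA and 21, 20 and 23 in PRMT5-shRNA. The groups did not overlap, and the log2 fold change was 1.75 (SE 0.65, adjusted p = 0.339). It shares 83.7% of its windows with HIST1H2AI, and the pair summed to 1.04, 1.07 and 0.966 CPM in NC-shRNA and to 1.70, 1.23 and 1.15 CPM in PRMT5-shRNA. The sum too was higher in each PRMT5-shRNA library, by a smaller step.

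At the other end, HIST1H4C had a log2 fold change of -1.07 (SE 0.68, adjusted p = 0.557), HIST1H1B of -1.02 (SE 0.75, adjusted p = 0.612) and HIST1H3B of -0.77 (SE 0.51, adjusted p = 0.57), all at no more than 0.58 CPM on average in either group and all with overlapping groups. These are canonical H4, H1.5 and H3.1 genes with no stem-loop in the annotated transcript. Together with HIST1H2AJ they show that the widest fold changes of the cluster genes sit at the lowest counts, as the plot of fold change against level shows.

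By family, the medians of the tested cluster genes were -0.23 for H1 (3 genes), 0.01 for H2A (11), 0.08 for H2B (14), 0.15 for H3 (8) and -0.06 for H4 (10). By locus, 7 of 9 HIST2 genes and 19 of 34 HIST1 genes were above 0, with medians of 0.13 and 0.03. Of the 24 tested cluster genes annotated past the stem-loop, 19 were above 0 with a median of 0.12, and of the 22 others 9 were, with a median of -0.06. Over all tested genes 10385 of 20295 were above 0. The near-identical pairs HIST2H3A with HIST2H3C and HIST2H4A with HIST2H4B are among both the 9 and the 24. The 9 also hold HIST2H2AA3 with HIST2H2AA4, so these counts are not of separate members. Groups did not overlap and were higher in PRMT5-shRNA for 4 of these 24 (16.7%), beside 11.0% of all tested genes and 12.2% of those with a mean count of at least 100. They were HIST2H2BE, HIST2H2BF, HIST2H3A and HIST2H3C, of which the last pair shares every window and so does not make 2 separate members. The genes past the stem-loop summed to 124 ± 6.76 and 132 ± 5.91 CPM, with overlap, and to 62.3 ± 2.68 and 68.6 ± 2.26 FPKM (SD, n = 3), without overlap.

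Histone pre-mRNA processing depends on SLBP, the stem-loop binding protein, and on LSM10 and LSM11, subunits particular to the U7 snRNP. SLBP was at 75.5, 73.9 and 62.7 CPM in NC-shRNA and at 63.9, 60.1 and 64.4 CPM in PRMT5-shRNA. The groups overlapped through NC-shRNA replicate 3, with a log2 fold change of -0.17 (SE 0.087, adjusted p = 0.455). LSM10 had a log2 fold change of -0.19 (SE 0.14), LSM11 of 0.11 (SE 0.10) and ZNF473, a zinc finger protein of the U7 complex, of -0.03 (SE 0.074), each with overlapping groups.

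Of 23 processing genes tested, 5 were above 0 and 18 below, with a median of -0.10. At an unadjusted p under 0.05, 1 (4.35%) was higher and 4 (17.4%) were lower, beside 6.54% and 6.29% of all tested genes. SNRPE, an Sm protein of the U7 and spliceosomal particles, was at 101, 93.1 and 87.3 CPM in NC-shRNA and at 64.7, 67.4 and 63.5 CPM in PRMT5-shRNA. The lowest NC-shRNA library stood well above the highest PRMT5-shRNA library, and the log2 fold change was -0.52 (SE 0.072, adjusted p = 0.102), with adjusted p from 7.75e-06 to 0.36 over the alternatives. SRRT and NCBP1, which link the cap to 3′ end formation, had log2 fold changes of -0.33 (SE 0.093, adjusted p = 0.265) and -0.21 (SE 0.053, adjusted p = 0.233), without overlap.

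NPAT, the coactivator of cluster genes at the histone locus body, was at 31.4, 29.6 and 26.7 CPM in NC-shRNA and at 21.5, 23.5 and 34.9 CPM in PRMT5-shRNA. The groups overlapped through PRMT5-shRNA replicate 3, which was the highest of all. CASP8AP2 (FLASH), which works in both transcription and processing at this body, was at 17.4, 21.3 and 21.2 CPM in NC-shRNA and at 24.8, 21.6 and 28.4 CPM in PRMT5-shRNA. There was no overlap between groups, with a log2 fold change of 0.32 (SE 0.14, adjusted p = 0.394). Of 13 genes of histone gene transcription 5 were above 0 and 8 below, with CCNE2 at -0.30 (SE 0.14) and its partner kinase CDK2 at -0.18 (SE 0.091).

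Histone chaperones carry histones to DNA or exchange them. Of 35 tested, 17 were above 0 and 18 below. With the same limit on p, 1 (2.86%) was higher and 4 (11.4%) were lower, beside 6.54% and 6.29% of all tested genes. ANP32E, which removes H2A.Z from chromatin, was at 140, 143 and 128 CPM in NC-shRNA and at 106, 109 and 122 CPM in PRMT5-shRNA. The groups did not overlap, with a log2 fold change of -0.28 (SE 0.078, adjusted p = 0.253). The nucleolar chaperones NCL and NPM1 had log2 fold changes of -0.25 (SE 0.06, adjusted p = 0.218) and -0.18 (SE 0.055, adjusted p = 0.287).

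Among 56 S phase genes tested, 19 were above 0 and 37 below, with a median of -0.06. At an unadjusted p under 0.05, 0 were higher and 10 (17.9%) were lower, beside 6.54% and 6.29% of all tested genes and 7.65% and 8.15% of those with a mean count of at least 100. RRM2, a subunit of ribonucleotide reductase, was at 245, 280 and 144 CPM in NC-shRNA and at 129, 140 and 129 CPM in PRMT5-shRNA. NC-shRNA replicate 3 lay close to the PRMT5-shRNA libraries while the other two NC-shRNA libraries were well above, and the log2 fold change was -0.75 (SE 0.22, adjusted p = 0.282). ORC1, of the origin recognition complex, had a log2 fold change of -0.31 (SE 0.074, adjusted p = 0.216) and the helicase subunit MCM4 of -0.26 (SE 0.075, adjusted p = 0.27). The list summed to 5874 ± 161 and 5531 ± 84.7 CPM (SD, n = 3), without overlap, whereas the summed cluster genes overlapped, and the part of the S phase level in the histone values was not tested.

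RNAs that carry no poly(A) tail give a measure of how much of such RNA each library held. A list of 34 summed to 23.6, 38.1 and 12.4 CPM in NC-shRNA and to 12.5, 9.85 and 17.0 CPM in PRMT5-shRNA, so the groups overlapped and NC-shRNA replicate 2 was the highest. RN7SL1 and RN7SL2, the RNA of the signal recognition particle, had log2 fold changes of -0.94 (SE 0.44, adjusted p = 0.429) and -1.26 (SE 0.60, adjusted p = 0.43), and SCARNA12, a guide RNA of Cajal bodies, of -1.33 (SE 0.41, adjusted p = 0.29). Of the 34, 9 were tested, 3 above 0 (up to 0.62) and 6 below. Without NC-shRNA replicate 2 the log2 fold changes were -0.53 for RN7SL1 and -0.36 for RN7SL2. The part of such carried-along RNA in the cluster values was not tested.

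Of the genes that act with PRMT5 on histones, its partner WDR77 had a log2 fold change of -0.25 (SE 0.12, adjusted p = 0.429) and CLNS1A, which directs it to Sm proteins, of -0.15 (SE 0.057, adjusted p = 0.34). Of 5 centromere genes whose proteins have a histone fold (CENPA, CENPT, CENPW, CENPS and CENPX), 2 were above 0 (up to 0.19) and 3 below. CENPW was at 23.3, 18.2 and 16.9 CPM in NC-shRNA and at 14.2, 14.7 and 13.6 CPM in PRMT5-shRNA. Both groups stood apart, with a log2 fold change of -0.46 (SE 0.14, adjusted p = 0.285). CENPX and CENPS, which pair with each other, had log2 fold changes of -0.31 (SE 0.11, adjusted p = 0.317) and -0.29 (SE 0.17, adjusted p = 0.523).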

How the data were processed

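RNA-seq libraries of NCI-H460 cells (3 NC-shRNA and 3 PRMT5-shRNA) were grouped by the sample labels. According to the submitters' processing notes, reads were trimmed with cutadapt 1.9, mapped with HISAT2 2.0.4 to GRCh38 and quantified with StringTie 1.3.4d, while the methods text names a mouse assembly. The authors deposited estimated counts per gene without normalization, which were already whole numbers. FPKM values, deposited in a second table, divide by transcript length and library size. The annotation release and the strand setting of the counting are not given in the sources used here.

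Counts were scaled by TMM and tested with edgeR 4.0.16 (R 4.3.3) after filterByExpr, which kept 20295 of 58825 genes, with p-values adjusted over all of them. The fit was tested on simulated data. Standard errors come from the F statistic. Alternatives were DESeq2 1.42.0, upper-quartile scaling, no filter, a likelihood ratio test, limma 3.58.1 on log2(FPKM + 1) or log2(FPKM + 0.1) with a minimum mean FPKM of 0.5 or none, a replicate block, each library left out, and, chosen after seeing the data, counts divided by 4 and a variant sum without H2AFZ. Library totals limit the precision of low genes, and intervals and floors cover counting error only.

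Members and gene lists were chosen with earlier results of these data known. Named genes are PRMT5, the tested variants, the 8 cluster genes with the highest CPM, the 4 higher and 4 lower cluster genes with the smallest p, 6 core processing genes and up to 3 genes of each list. Other members were named for their place among the groups after their values were seen. Positions, biotypes, stem-loops, matches of AATAAA or ATTAAA, overlaps and shared 50-base windows came from GENCODE release 29. In it 58552 of the gene identifiers were found. Promoters came from RefSeq, matched for 61 cluster genes and 16 variants. Within a group the chi-square per degree of freedom between 2 libraries was 43.6 or more. It was taken over the genes above a low summed count in the pair, with counts read as single fragments. Every library was kept as its own replicate.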

Additional observations from a re-analysis of the deposited data

How the results depend on the processing

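The fold change of PRMT5 stayed between -1.66 and -1.49 under all alternatives. The replicate numbers did not pair the libraries (correlations of deviations of 0.02, -0.05 and 0.10), and with a replicate block PRMT5 stayed at -1.62 but lost its call (adjusted p = 0.144), no histone gene passed the looser limits (0), the variant median was -0.10 and H2BFS was at 0.15. DESeq2 called 1 histone gene higher and 1 lower. Under limma with either pseudocount or no filter 0 passed the looser limits, the variant median was -0.052, -0.074 and -0.069, the cluster median was 0.14 with the pseudocount of 0.1 and 0.011 with no filter, and the sign turned for H1FX (0.0348 and 0.0356 with the pseudocounts of 1 and 0.1), H2AFY (0.0255 and 0.0285), H3F3B (0.00677 and 0.00687) and ZNF473 (0.0263 and 0.033). With no filter on counts the cluster median was -0.010. With each library left out, PRMT5 ran from -1.66 to -1.54, members past the looser limits from 0 to 1 in each direction, the cluster median from -0.015 to 0.084 and the variant median from -0.20 to -0.087. The higher count was 0 without NC-shRNA replicate 1 or PRMT5-shRNA replicate 3, and in place of HIST1H2AJ it was HIST2H3C without NC-shRNA replicate 3, without PRMT5-shRNA replicate 2 or with counts divided by 4, and HIST1H2BN without PRMT5-shRNA replicate 1. The lower count was 1 without PRMT5-shRNA replicate 2 (HIST1H4C) or replicate 3 (HIST1H3B). The fold change then crossed 0 for H2AFJ (-0.046 to 0.055), H2AFY (-0.10 to 0.032), H2BFS (-1.10 to 1.19), H3F3B (-0.18 to 0.11), H3F3C (-0.37 to 0.13), HIST1H2BK (-0.16 to 0.0046), HIST2H4A (-0.16 to 0.27), HIST2H4B (-0.045 to 0.24) and HIST1H2BH (-0.0038 to 0.10). The cause was not tested. Over all genes the calls at an adjusted p of 0.05 were 10 higher and 4 lower, 303 and 227 with DESeq2, 119 and 65 with the likelihood ratio test, and 0 with the block.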
